A study of Mus musculus with 4 samples.

Results

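The levels of 9 genes of blood coagulation and fibrinolysis were followed across the immune cells of the mouse brain and dura mater. These genes, F3, F5, F7, F10, F13a1, Plau, Plaur, Serpinb2 and Thbd, were chosen by name, and all of them were listed in each of the 4 libraries, which together listed 19491 genes. A gene that a library did not list was counted as 0 there. C57BL/6J mice aged 8 weeks received photothrombotic injury (PTI), in which light activates the dye Rose Bengal and clots the illuminated vessels, or were controls, which the labels call CT and which are written S3 here after the study's notation for sham at day 3. Live CD45+ cells were sorted from enzymatically dissociated brain or dura mater, so every group shares the sort and the digestion. Brain S3, dura S3, brain D3 (day 3 after PTI) and dura D3 each consist of 1 library, and the number of mice behind each library is not given in the sources used here. With 1 library per condition no difference between conditions could be tested, and the intervals below cover counting error only.

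Between 2603 and 4438 cells per library passed the filters, with a median of 8252 to 14269.5 UMIs (unique molecular identifiers, each 1 counted RNA molecule) per cell, and both D3 libraries were deeper than both S3 libraries. Pairs of libraries shared 3 to 11 cell barcodes. Ptprc, which encodes CD45, had at least 1 UMI in 91.9% to 95.5% of the cells of each library. Microglia-like cells numbered 431 and 627 in the brain libraries and 3 and 5 in the dura libraries. Cells were clustered and each cluster was named after marker genes, which gave 23 named classes and 4 unnamed clusters with 721 cells. Levels are given as CPM, UMIs of the gene per 1000000 UMIs of all cells of a class in a library, with the exact Poisson 95% interval. In pooled cells a higher level can come from more cells that carry the RNA or from more RNA per cell, so for the main results the percent of cells in which a UMI was found is printed too.

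Coagulation is a chain of protease activations on cell surfaces. Tissue factor (F3) binds factor VII (F7), the complex activates factor X (F10), and factor Xa with its cofactor factor V (F5) turns prothrombin into thrombin. Thrombin makes fibrin, which the transglutaminase factor XIII, with its A subunit encoded by F13a1, cross-links. Thrombomodulin (Thbd) turns thrombin toward activation of the anticoagulant protein C, urokinase (Plau) on its receptor (Plaur) converts plasminogen into the fibrin-degrading protease plasmin, and Serpinb2 encodes an inhibitor of urokinase. Plasma factors VII and X come mainly from the liver, while monocytes and macrophages are known sources of factor XIII A subunit and can make several of the other components.

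On GRCm38 (mm10), with GENCODE vM21 gene models, F7 (ENSMUSG00000031443, chr8:13026034-13035809, plus strand) and F10 (ENSMUSG00000031444, chr8:13037308-13056676, plus strand) are neighbours, with 1498 bases between the end of F7 and the start of F10, and they do not overlap. F13a1 (ENSMUSG00000039109) lies at chr13:36867178-37050244 on the minus strand and overlaps the antisense genes Gm49144 and Gm30489. F5 (ENSMUSG00000026579) is at chr1:164151838-164220277, F3 (ENSMUSG00000028128) at chr3:121723537-121735048, Plau (ENSMUSG00000021822) at chr14:20836660-20843385, Plaur (ENSMUSG00000046223) at chr7:24462484-24475968 and Serpinb2 (ENSMUSG00000062345) at chr1:107511423-107535478, all on the plus strand, and Thbd (ENSMUSG00000074743) is at chr2:148404466-148408188 on the minus strand. Serpinb10 on the same strand overlaps 6476 bases of Serpinb2, so reads there may fit both genes. Of the 9 genes, 7 had a promoter sequence in RefSeq (GRCm38.p6, 250 bases before to 50 after the start), and those of F7, F10 and F13a1 are shown because these genes held the main differences below. RefSeq gave 2 for F13a1, of which the one at the GENCODE start is shown.
F7, chr8:13025784-13026083, plus strand: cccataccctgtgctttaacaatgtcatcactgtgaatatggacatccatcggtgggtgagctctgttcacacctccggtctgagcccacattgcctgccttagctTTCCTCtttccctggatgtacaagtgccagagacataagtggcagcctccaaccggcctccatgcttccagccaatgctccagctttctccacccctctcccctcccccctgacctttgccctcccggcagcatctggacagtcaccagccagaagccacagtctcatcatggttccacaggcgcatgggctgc
F10, chr8:13037058-13037357, plus strand: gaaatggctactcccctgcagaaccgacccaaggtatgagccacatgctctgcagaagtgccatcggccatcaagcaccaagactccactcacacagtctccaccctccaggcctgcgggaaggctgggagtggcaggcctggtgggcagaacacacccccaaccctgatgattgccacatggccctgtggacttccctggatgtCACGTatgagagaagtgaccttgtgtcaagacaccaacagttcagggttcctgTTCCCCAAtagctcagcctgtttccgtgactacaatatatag
F13a1, chr13:37050195-37050494, minus strand: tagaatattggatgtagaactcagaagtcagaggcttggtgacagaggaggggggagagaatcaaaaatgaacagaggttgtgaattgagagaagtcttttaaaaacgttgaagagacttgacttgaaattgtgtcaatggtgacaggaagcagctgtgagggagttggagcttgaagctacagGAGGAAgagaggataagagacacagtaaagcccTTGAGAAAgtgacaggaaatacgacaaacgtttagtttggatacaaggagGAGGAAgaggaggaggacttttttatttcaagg
Capitals mark matches, on either strand, to 5 short motifs: PU.1 (GAGGAA), C/EBP (TTNNGNAA), AP-1 (TGANTCA), HIF (ACGTG) and NF-kB (GGGNNTTCC). Counted from the start site, the F7 promoter held 1 match, PU.1 at -144. The F10 promoter held the HIF letters at -45 and a C/EBP match at 9, and the F13a1 promoter shown held PU.1 matches at -66 and 18 and a C/EBP match at -33. No matches overlapped in these windows. The other F13a1 promoter held a C/EBP match at 13 that overlapped a PU.1 match at 15. Of 32851 promoters of the same length, 28.3% held the PU.1 letters, 40.7% C/EBP, 19.6% HIF, 7.81% AP-1 and 5.82% NF-kB, so the shared letters are common, and a match is a description of the sequence only.

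**Figure D1:**
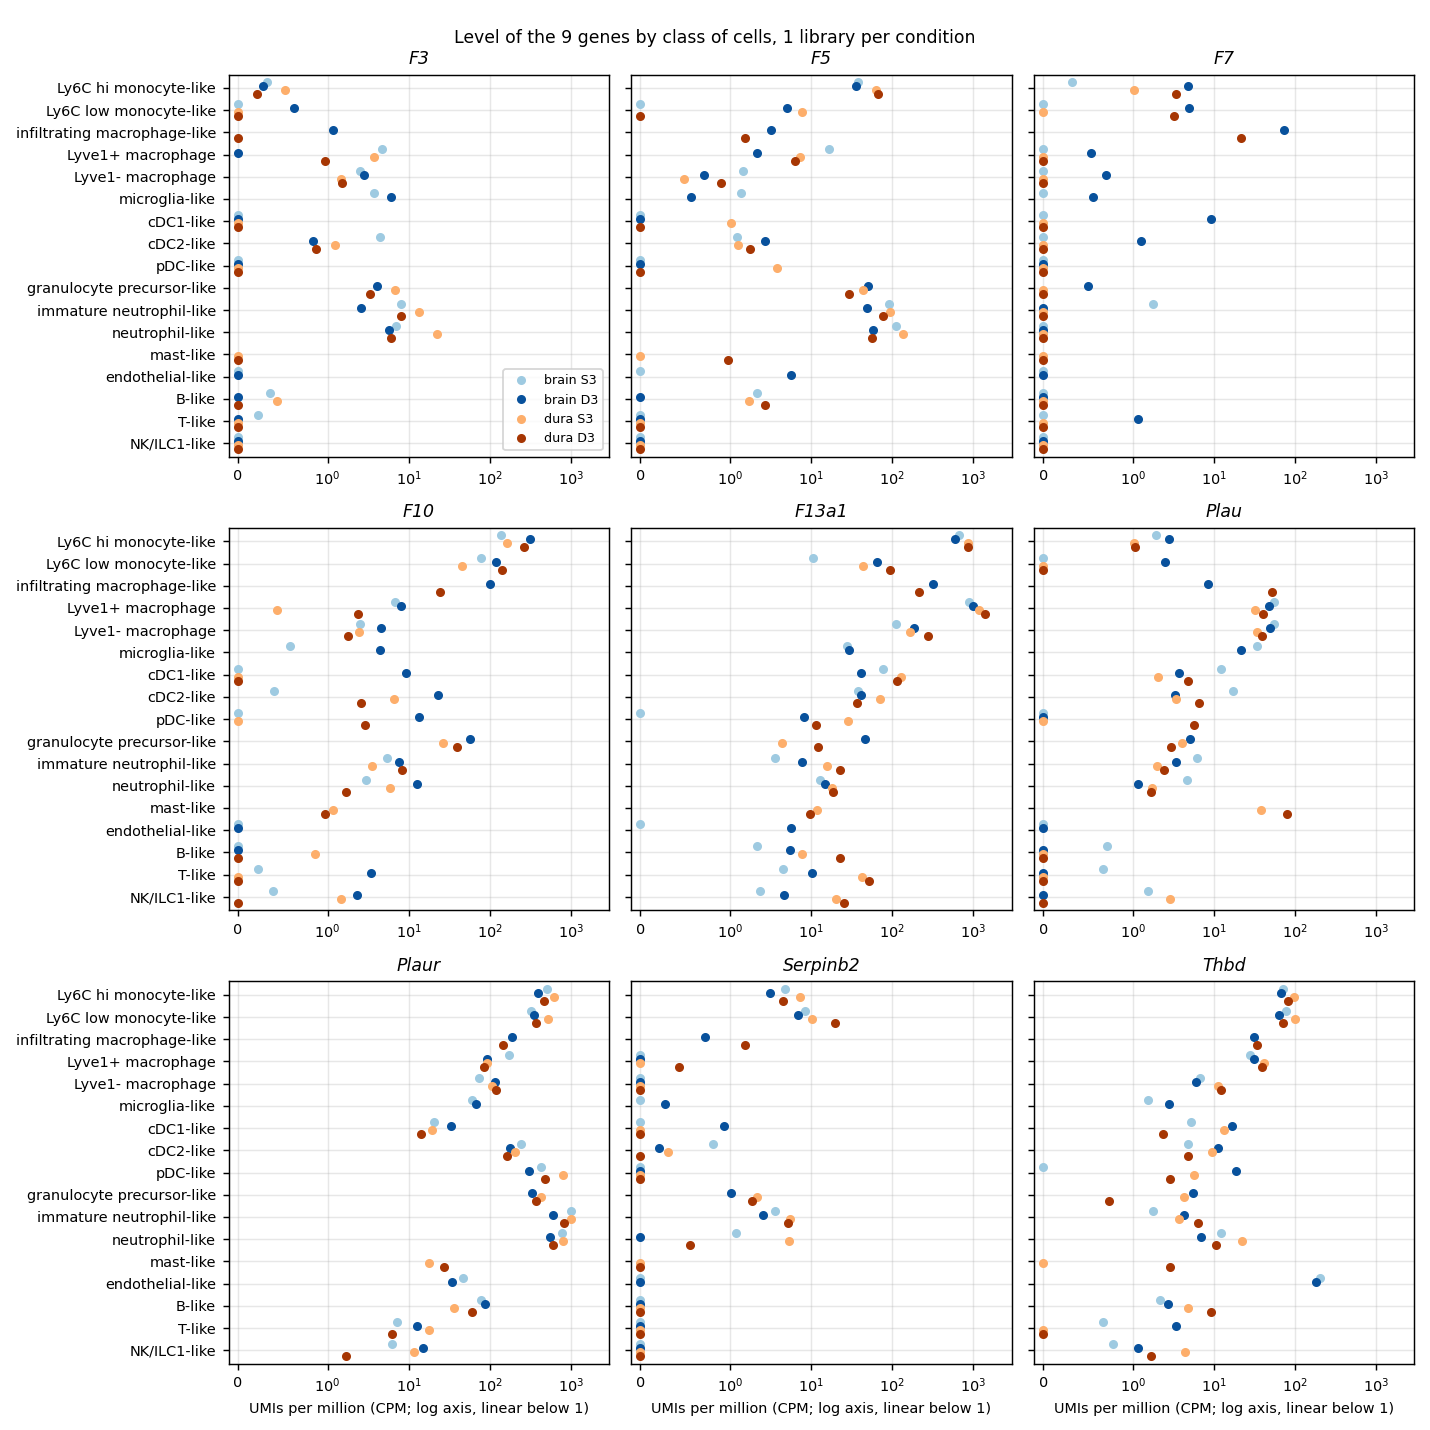
Level of each of the 9 genes (CPM, log axis, linear below 1) by class of cells, with 1 point per library. F7 stands apart in the infiltrating macrophage-like cells, F10 in Ly6C hi monocyte-like cells and F13a1 in Lyve1+ macrophages. F5 is high in the neutrophil classes and Plaur in the neutrophil classes, Ly6C hi monocyte-like and pDC-like cells. Proliferating cell-like cells are not drawn.

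F7, the protease that works with tissue factor, was found almost entirely in 1 class of 1 library, the infiltrating macrophage-like cells of brain D3. Infiltrating macrophage-like cells, named after markers that include Arg1 and Gpnmb, numbered 1461 in brain D3, 32 in dura D3, 17 in dura S3 and 11 in brain S3. In the brain D3 cells of this class F7 reached 72.7 CPM (69.8 to 75.6, 2433 UMIs), which was 97.4% of the 2499 F7 UMIs of that library. All kept cells of brain S3 together held 8 F7 UMIs, those of dura S3 11 and those of dura D3 36. In the 144 Lyve1+ and 222 Lyve1- macrophages of brain S3, F7 had 0 UMIs, which allows up to 1.57 and 1.08 CPM, and it also had 0 UMIs in the 431 microglia-like cells, which allows up to 0.582 CPM. F7 was therefore at least 114-fold higher in the infiltrating macrophage-like cells of brain D3 than in both macrophage classes of brain S3 together, with a floor of 3 UMIs over the pooled S3 cells. The macrophages of brain D3 itself had 3 F7 UMIs, and the ratio to them was 6.83 on the log2 scale (5.28 to 9.11).

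At the level of single cells, 599 of the 1461 infiltrating macrophage-like cells (41.0%, Clopper-Pearson 95% interval 38.5 to 43.6) had an F7 UMI, and the median cell held 21458 UMIs. With every cell thinned to 2000 UMIs the share was 9.99% (8.50 to 11.7). T-like cells of the same library, which should lack F7, had it in 1 of 130 cells (0.769%), where the median cell held 5945 UMIs, and after thinning in none. At the finer clustering resolution of 1.2 these cells fell mainly into 2 clusters. The 1095 cells of the larger one, with a median of 23581 UMIs, with Gpnmb at 1732 CPM and Ly6c2 at 53.3 CPM, held F7 at 83.9 CPM (80.4 to 87.4), and the 365 cells of the other, with a median of 15830 UMIs, Gpnmb at 236 CPM and Ly6c2 at 199 CPM, held it at 26.2 CPM (22.4 to 30.4). Both clusters come from the same clustered cells, so these levels are a description.

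Ly6C hi monocyte-like cells, the classical monocytes that enter injured tissue, carried little F7 but more of it in both D3 libraries. The level was 0.321 CPM (1 UMI) in brain S3 and 4.81 CPM (17 UMIs) in brain D3, a log2 ratio of 3.90 (1.23 to 9.29). In the dura mater it was 1.05 CPM (4 UMIs) in S3 and 3.45 CPM (16 UMIs) in D3, a log2 ratio of 1.72 (0.09 to 3.76). Even so, the infiltrating macrophage-like cells of brain D3 exceeded the Ly6C hi monocyte-like cells of the same library 15.1-fold (9.42 to 26.0). The 32 infiltrating macrophage-like cells of dura D3 had 21.5 CPM, from 14 UMIs of which 57.1% came from 1 cell. The 10 F7 UMIs of cDC1-like cells in brain D3 all came from 1 of 50 cells, and F7 had 0 UMIs in neutrophil-like cells of all 4 libraries and 0 to 2 in immature neutrophil-like cells.

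F10, the protease at the meeting point of the extrinsic and intrinsic branches, followed a different order. Among the named classes it was highest in Ly6C hi monocyte-like cells in each of the 4 libraries, with an interval apart from that of the next class. In these cells F10 was 137 CPM (124 to 151) in brain S3 and 314 CPM (295 to 333) in brain D3, a 2.29-fold ratio (2.04 to 2.56). In the dura mater it was 162 CPM (150 to 176) in S3 and 269 CPM (254 to 284) in D3, a 1.65-fold ratio (log2 0.73, 0.59 to 0.87). The intervals of S3 and D3 did not overlap in either tissue. The share of these cells with an F10 UMI went from 66.8% to 84.1% in the brain and from 69.1% to 84.9% in the dura, and after thinning from 19.3% (14.3 to 25.1) to 42.1% (35.9 to 48.4) and from 26.8% (21.6 to 32.6) to 34.9% (29.1 to 41.0), so that the thinned dura intervals overlapped. Among all genes tested in this class, 11.7% passed 2-fold in the brain and 7.48% in the dura. In the brain 2 of the 8 members tested passed, F7 and F10, and in the dura 1 of 7, F7, where a gene was tested if both groups had 10 UMIs or more between them. F10 in the brain was within 2-fold with classes gated cell by cell (log2 ratio 0.89) or with 2500 cells per library (0.98), and F7 in the dura went down to 0.27 over the settings tried. The median log2 ratio was -0.06 over these members and -0.07 over all genes in the brain, and 0.01 and -0.03 in the dura.

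The same gene was present at lower levels in other classes, not all of them monocyte-derived. Proliferating cell-like cells had F10 at 68.9 CPM in brain S3, 117 CPM in brain D3, 72.4 CPM in dura S3 and 131 CPM in dura D3. This class mixes lineages, and 54.9% of it kept its class when gated cell by cell. At resolution 1.2, proliferating clusters included ones with markers of granulocyte precursors (262 cells), Ly6C hi monocytes (195 cells) or microglia (74 cells). Which of these lineages held the F10 of the class was not tested. Granulocyte precursor-like cells had 57.6 CPM in brain D3, 26.5 CPM in dura S3 and 39.6 CPM in dura D3. Infiltrating macrophage-like cells of brain D3 held F10 at 101 CPM (98.1 to 105), 3.09-fold below the Ly6C hi monocyte-like cells beside them and 23.8-fold (15.4 to 39.0) above the macrophages of brain S3, where the level was 4.27 CPM. Of the infiltrating macrophage-like cells, 54.3% had an F10 UMI, and 17.2% after thinning. Within the class F10 took the opposite order to F7, with 80.0 CPM (76.6 to 83.4) in the larger cluster and 189 CPM (178 to 200) in the cluster with more Ly6c2. Ly6C low monocyte-like cells, which patrol vessels, had 77.4 CPM in brain S3, 120 CPM in brain D3, 46.0 CPM in dura S3 and 144 CPM in dura D3, the last from 44 UMIs of which 50% came from 1 cell. T-like cells had 0 to 3 F10 UMIs per library.

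Cells with both transcripts were counted in brain D3. Of the infiltrating macrophage-like cells with an F7 UMI, 68.4% also had an F10 UMI, against 44.4% of those without, and after thinning to equal depth the shares were 20.5% and 16.8%. Thinning also lowered the number of cells with an F7 UMI from 599 to 146 and with an F10 UMI from 793 to 251. A gap in shares can shrink with fewer UMIs alone, and the part of unequal depth was not tested. Over 65 groups of at least 50 cells, each a class in a library, the genes whose log2(CPM + 1) was most like F7 were Gpnmb (Pearson r = 0.67), Fabp5 and Plin2, and those most like F10 were Tor1a (r = 0.83), Gnb2 and Mefv, among 12089 genes. These groups share libraries and Gpnmb and Fabp5 are markers that named the infiltrating macrophage-like class, so the values are a description.

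**Figure D2:**
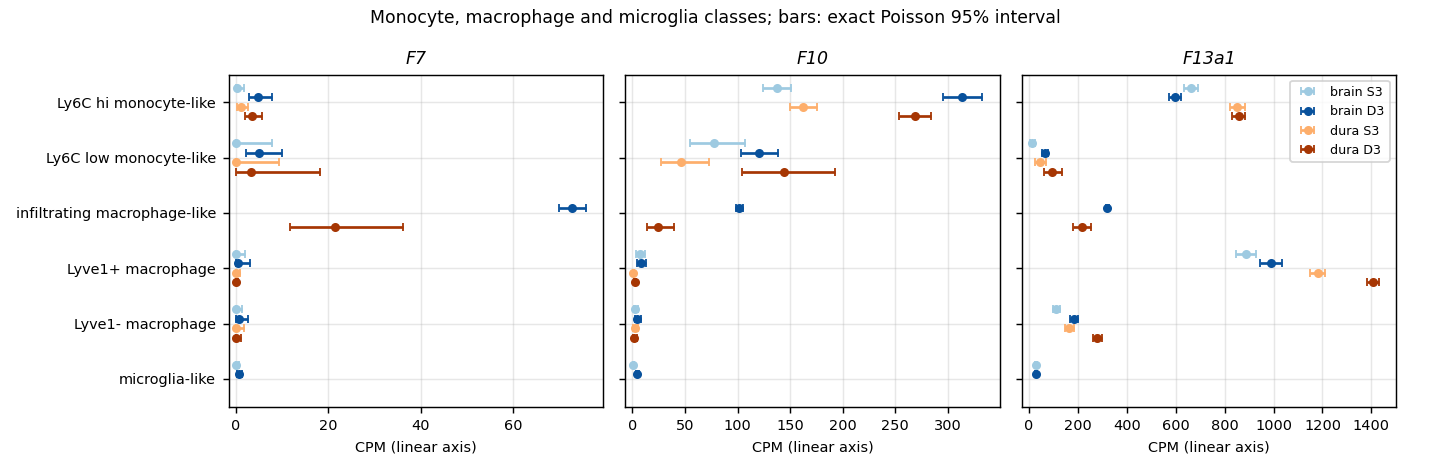
CPM (linear axes) of F7, F10 and F13a1 in the monocyte, macrophage and microglia classes of each library, with exact Poisson 95% intervals. F7 is raised in the infiltrating macrophage-like cells of brain D3 (72.7 CPM), F10 in Ly6C hi monocyte-like cells (137 to 314 CPM) and F13a1 in Lyve1+ macrophages (887 to 1406 CPM).

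In resident phagocytes F10 stayed low. Microglia-like cells had 0.582 CPM (3 UMIs) in brain S3 and 4.48 CPM (48 UMIs) in brain D3, a log2 ratio of 2.94 (1.31 to 5.27), and the share of cells with a UMI was 0.696% and 4.15%. After thinning 2 cells in D3 and none in S3 had it, which is at the limit of detection. Among all genes of microglia-like cells 13.8% passed 2-fold, and of 7 members F10 passed upward and F5 downward, the latter on 6 and 7 UMIs. Lyve1+ macrophages had 6.80 and 8.05 CPM in brain S3 and D3, with overlapping intervals, and 0.443 CPM (2 UMIs) and 2.37 CPM (22 UMIs) in dura S3 and D3. In cDC2-like cells of the brain F10 went from 1 UMI (0.406 CPM) to 111 UMIs (23.1 CPM), a log2 ratio of 5.83 (3.33 to 11.15), and 9.43% of the D3 cells had a UMI. Over the settings tried this ratio ranged from 0.10 to 6.27, so its size depended on the processing. In the dura mater the cDC2-like cells had 21 and 6 F10 UMIs, with an interval of the log2 ratio from -2.92 to 0.04.

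F13a1, the cross-linker of fibrin, was highest in border macrophages in each of the 4 libraries. In Lyve1+ macrophages, which line vessels and meninges, it was 887 CPM (845 to 930) in brain S3, 988 CPM (944 to 1035) in brain D3, 1180 CPM (1148 to 1212) in dura S3 and 1406 CPM (1382 to 1430) in dura D3. Between 95.6% and 98.8% of these cells had an F13a1 UMI, and 78.3% to 84.0% after thinning. The D3 to S3 ratio was 1.12-fold (1.04 to 1.19) in the brain and 1.19-fold (1.15 to 1.23) in the dura, both beyond counting error but far from 2-fold. Over the settings tried the log2 ratio in the brain ranged from 0.0005 to 0.46, so the brain difference depended on the processing. In Lyve1- macrophages the level was lower and the ratio larger, 112 and 184 CPM in brain S3 and D3 (1.63-fold, 1.42 to 1.89) and 165 and 280 CPM in dura S3 and D3 (1.69-fold, 1.49 to 1.92). Of these Lyve1- cells 41.0% to 59.9% had an F13a1 UMI. Among all genes, 8.73% passed 2-fold in Lyve1+ macrophages of the brain, 6.53% in those of the dura, 7.43% in Lyve1- macrophages of the brain and 5.99% in those of the dura, and F13a1 passed in none of the 4 comparisons. With classes gated cell by cell, which kept 33.3% of the Lyve1- macrophages in their class, its log2 ratio in those of the dura was 1.26. Of the members tested, 1 of 6 passed in Lyve1+ macrophages of the brain (F5), 2 of 7 in those of the dura (F10 upward and F3 downward, on 24 and 26 UMIs), and none of 6 and of 5 in the Lyve1- macrophages. After thinning, the share of Lyve1- cells with an F13a1 UMI was 20.3% and 22.5% in brain S3 and D3 and 23.0% and 29.96% in dura S3 and D3, with overlapping intervals.

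Ly6C hi monocyte-like cells were the second place of F13a1. They held 661 CPM in brain S3, 596 CPM in brain D3, 853 CPM in dura S3 and 857 CPM in dura D3, and the log2 ratio was -0.15 (-0.24 to -0.06) in the brain and 0.01 (-0.06 to 0.07) in the dura. Infiltrating macrophage-like cells of brain D3 lay between both macrophage classes at 321 CPM (315 to 327), a log2 ratio of -0.42 (-0.48 to -0.35) to the brain S3 macrophages and -0.89 (-0.96 to -0.83) to the Ly6C hi monocyte-like cells. These 1461 cells were 32.9% of the cells of the library and held 33472586 of its 72390201 UMIs. They held 60.7% of its F13a1 UMIs, as the plot of where UMIs were counted shows. Proliferating cell-like cells, the class of mixed lineages, had 498 and 511 CPM in brain S3 and D3 and 511 and 731 CPM in dura S3 and D3. Microglia-like cells had 27.4 and 29.1 CPM in brain S3 and D3.

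F13a1 UMIs were also found in lymphocytes, which should lack the transcript. T-like cells had F13a1 at 4.47 and 10.3 CPM in brain S3 and D3 and at 42.1 and 52.4 CPM in dura S3 and D3, and B-like cells at 2.14 to 22.6 CPM, so F13a1 levels in this range cannot be told apart from background. Platelets also contain F13a1, and of 12 platelet markers 4 to 10 had a UMI in the Lyve1+ macrophages, a marker that a library did not list counting as 0. Tubb1 was listed in no library and Gp1ba in neither brain library, so their 0 there was fixed by the listing. Gp1ba had 0 UMIs in the Lyve1+ macrophages of both dura libraries, where it was listed. The summed level of the 12 markers was 5.90 to 9.52 CPM in the Lyve1+ macrophages and 11.5 to 27.5 CPM in T-like cells. The genes most like F13a1 over the 65 groups were Gm47675 (r = 0.89), Msr1 and Tmem106a.

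**Figure D3:**
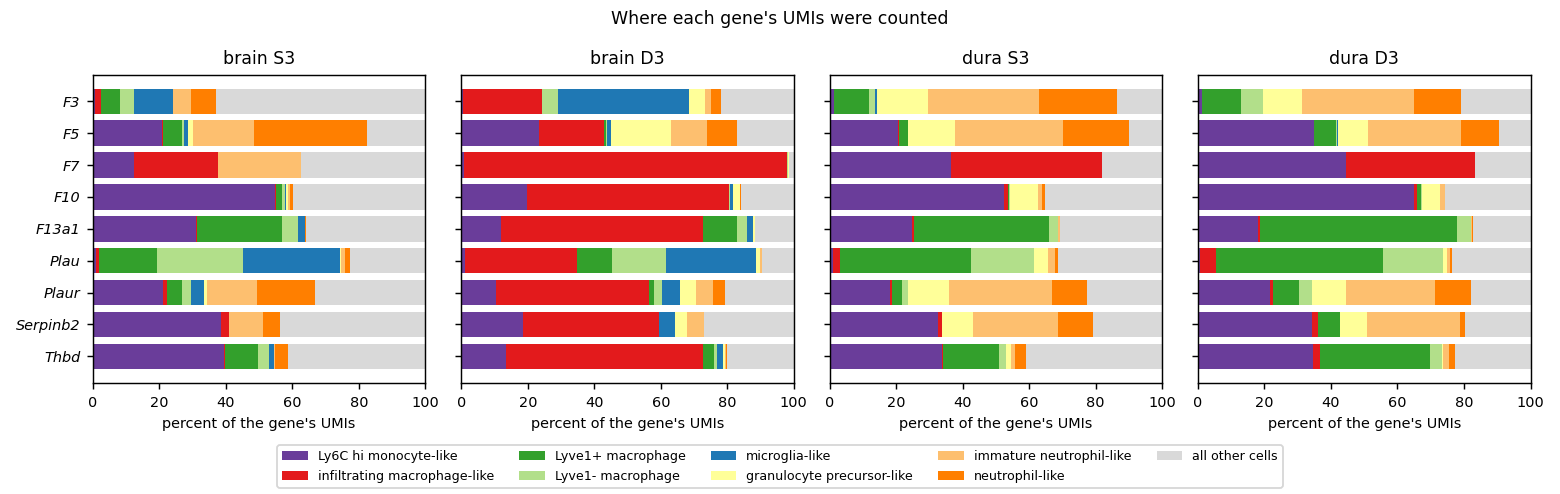
Percent of each gene's UMIs counted in 8 classes and in all other cells, by library. In brain D3 the infiltrating macrophage-like cells hold 97.4% of F7, 60.6% of F10 and 60.7% of F13a1, and 33472586 of the 72390201 UMIs of all genes.

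F5, the cofactor of factor Xa, was a transcript of granulocytes and monocytes. Neutrophil-like cells, the mature class, had 112 CPM (96.7 to 129, 190 UMIs) in brain S3, 57.3 CPM (42.5 to 75.6, 50 UMIs) in brain D3, 135 CPM (118 to 153, 231 UMIs) in dura S3 and 56.6 CPM (46.1 to 68.7, 102 UMIs) in dura D3. Both D3 libraries were below both S3 libraries, and the intervals of S3 and D3 did not overlap. The log2 ratio of D3 to S3 was -0.97 (-1.45 to -0.51) in the brain and -1.25 (-1.60 to -0.91) in the dura. The share of neutrophil-like cells with an F5 UMI was 37.0% and 23.2% in brain S3 and D3 and 43.2% and 29.3% in dura S3 and D3, and after thinning 20.9% and 7.74%, and 21.1% and 11.1%.

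The dura D3 neutrophil-like class held cells low in neutrophil markers. Of its 198 cells, 16 had under 1% of their UMIs from S100a8 and S100a9, the main cytosolic proteins of neutrophils, and these cells were deep, with a median of 30041 UMIs, and held 22.8% of the UMIs of the class but no F5 UMI. In the other 3 libraries 3 to 8 such cells held 0.888% to 3.20% of the UMIs. Without these cells, a choice made after seeing the data, F5 was 115 and 57.8 CPM in brain S3 and D3 and 137 and 73.3 CPM in dura S3 and D3, and the log2 ratio was -0.99 (-1.47 to -0.54) in the brain and -0.90 (-1.25 to -0.56) in the dura. The share of all genes past 2-fold in the dura was 30.1% with these cells and 12.8% without them, and in the brain 14.9% and 14.8%. In the dura 5 of 7 members, F3, F5, F10, Serpinb2 and Thbd, passed 2-fold downward with these cells, and without them 1 of the 5 members still tested, F3, at a log2 ratio of -1.43 (-2.56 to -0.43). In the brain 1 of 6 members passed, F10, on 11 and 5 UMIs.

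Immature neutrophil-like cells, which express secondary granule genes, had F5 at 91.6 CPM in brain S3, 49.6 CPM in brain D3, 94.6 CPM in dura S3 and 76.5 CPM in dura D3. The log2 ratio was -0.89 (-1.38 to -0.41) in the brain and -0.31 (-0.54 to -0.07) in the dura, and after thinning the dura shares were 18.6% and 19.3%. In this class 14.6% of all genes passed 2-fold in the brain and 10.6% in the dura, and of the members F13a1 (13 UMIs) passed upward and F3 (12 UMIs) downward among 6 in the brain, and F10 (41 UMIs) upward among 8 in the dura. Granulocyte precursor-like cells had 50.05 CPM in brain D3, 44.0 CPM in dura S3 and 29.2 CPM in dura D3. Ly6C hi monocyte-like cells had 37.6 and 36.2 CPM in brain S3 and D3 and 62.9 and 66.6 CPM in dura S3 and D3, so that the intervals of the tissues lay apart and those of the conditions overlapped. In infiltrating macrophage-like cells of brain D3 F5 was 3.17 CPM, 11.4-fold below the Ly6C hi monocyte-like cells. T-like cells had 0 F5 UMIs in each of the 4 libraries. In Lyve1+ macrophages of the brain F5 had 32 UMIs in S3 and 4 in D3, the 1 member past 2-fold there, at a log2 ratio of -2.96 (-4.92 to -1.47). The genes most like F5 were Tnfaip6 (r = 0.92), Mgst1 and Hp.

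Plaur, the urokinase receptor, was highest in immature neutrophil-like cells in each library, with 999 CPM in brain S3, 614 CPM in brain D3, 1024 CPM in dura S3 and 828 CPM in dura D3, and 96.6% to 100% of these cells had a UMI. Neutrophil-like cells had 773, 563, 796 and 607 CPM in the same order, and Ly6C hi monocyte-like cells 509, 400, 624 and 467 CPM. In all 3 classes and both tissues the D3 library was lower. The log2 ratios were -0.70 (-0.84 to -0.57) and -0.31 (-0.38 to -0.24) in immature neutrophil-like cells, -0.46 (-0.61 to -0.31) and -0.39 (-0.51 to -0.27) in neutrophil-like cells and -0.35 (-0.45 to -0.24) and -0.42 (-0.50 to -0.33) in Ly6C hi monocyte-like cells, for brain and dura, none past 2-fold. For neutrophil-like cells of the dura the ratio was -0.03 (-0.15 to 0.09) without the cells low in S100a8 and S100a9.

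In Lyve1- macrophages of the brain Plaur was 74.9 CPM in S3 and 116 CPM in D3 (log2 ratio 0.63, 0.37 to 0.88), and in Lyve1+ macrophages 176 and 93.9 CPM (-0.90, -1.18 to -0.64), a value that turned to 1.29 with no filter on cells. In the dura mater Plaur was 106 and 120 CPM in Lyve1- macrophages of S3 and D3 (0.17, -0.07 to 0.42) and 92.5 and 84.1 CPM in Lyve1+ macrophages (-0.14, -0.31 to 0.04), with intervals that held 0. pDC-like cells ranged from 308 to 811 CPM on 22 to 42 cells per library. Infiltrating macrophage-like cells of brain D3 had 187 CPM, 2.14-fold below Ly6C hi monocyte-like cells and 1.61-fold above the macrophages of brain S3. T-like cells had 6.29 to 17.9 CPM and B-like cells 36.3 to 86.9 CPM. A list of 12 dissociation genes was also lower in D3 in Ly6C hi monocyte-like and neutrophil-like cells. In Ly6C hi monocyte-like cells it summed to 18940 CPM in brain S3 and 8964 CPM in brain D3. The sums were 11620 and 7483 CPM in those of the dura and 12865 and 7290 CPM in neutrophil-like cells of the brain. In neutrophil-like cells of the dura, with the cells low in S100a8 and S100a9 kept, they were 13600 and 8642 CPM. All 12 genes had UMIs in each of these groups, and the part of this difference in the levels of Plaur was not tested. The genes most like Plaur were Mcemp1 (r = 0.91), Gda and Ckap4.

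**Figure D4:**
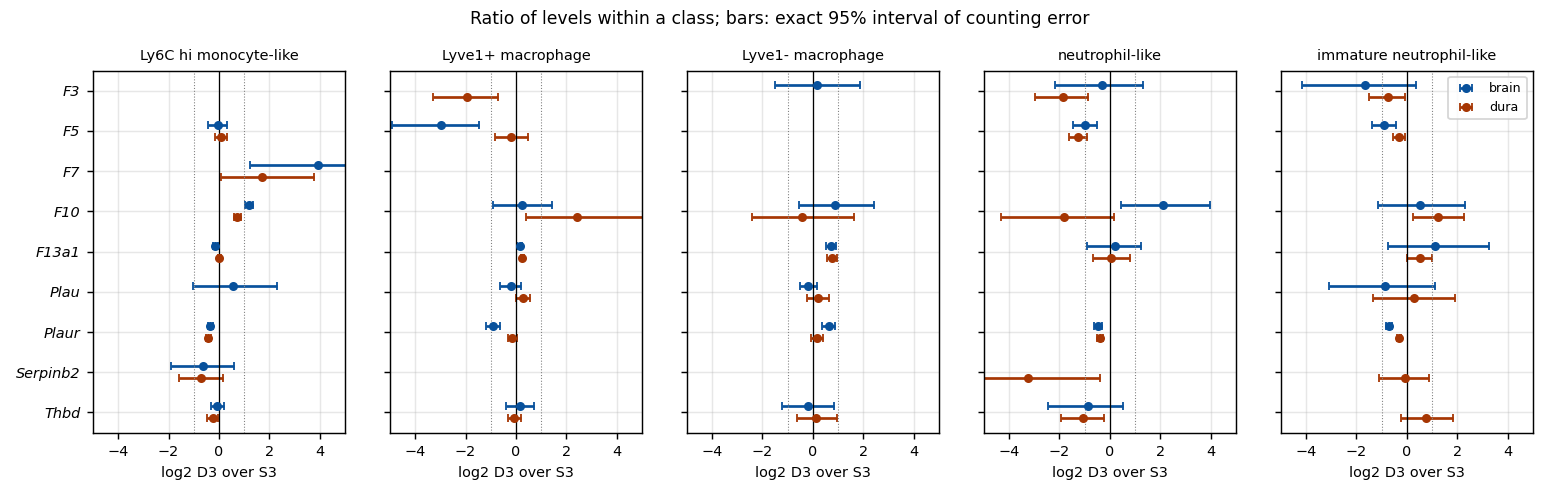
Log2 ratio of D3 to S3 by class, for members that had 10 UMIs or more over S3 and D3, brain in blue and dura in brown, with exact 95% intervals of counting error. Dotted lines mark 2-fold, F10 lies to the right in Ly6C hi monocyte-like cells (1.19 and 0.73) and F5 to the left in neutrophil-like cells (-0.97 and -1.25).

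Plau, which encodes urokinase itself, was not highest in the cells with most of its receptor. Among the named classes its level was highest in Lyve1+ and Lyve1- macrophages in the brain and in mast-like cells in the dura. Lyve1+ macrophages had 55.5, 48.3, 32.8 and 40.1 CPM in brain S3, brain D3, dura S3 and dura D3, and Lyve1- macrophages 56.1, 49.3, 34.6 and 39.7 CPM. The intervals of S3 and D3 overlapped within each tissue and class, although that of the ratio in Lyve1+ macrophages of the dura began just above 0 (log2 0.29, 0.01 to 0.57). Microglia-like cells had 34.4 CPM in S3 and 21.6 CPM in D3, a log2 ratio of -0.67 (-0.95 to -0.38). Over the settings tried this ratio ranged from -0.67 to -0.22. Infiltrating macrophage-like cells of brain D3 had 8.60 CPM (7.64 to 9.66), 6.49-fold below the macrophages of brain S3 and 5.69-fold below those of brain D3, whereas the 32 such cells of dura D3 had 52.2 CPM (36.2 to 73.0). Mast-like cells of the dura had 38.8 CPM (26.7 to 54.5, 33 UMIs) in S3 and 79.8 CPM (63.4 to 99.0, 82 UMIs) in D3, and 22.2% and 55.3% of them had a UMI. After thinning the mast-like shares were 6.48% and 12.8% with overlapping intervals. Ly6C hi monocyte-like cells had 4 to 10 Plau UMIs per library.

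Thbd, thrombomodulin, is best known from endothelium, and in the brain endothelial-like cells had the highest level of the named classes, 207 CPM in the 20 cells of brain S3 and 183 CPM in the 24 cells of brain D3. Among leukocytes Ly6C hi monocyte-like cells had 70.6 and 67.6 CPM in brain S3 and D3 and 98.8 and 83.0 CPM in dura S3 and D3, and Ly6C low monocyte-like cells 77.4, 63.2, 99.6 and 71.9 CPM in brain S3, brain D3, dura S3 and dura D3. In Ly6C hi monocyte-like cells the log2 ratio was -0.06 (-0.33 to 0.21) in the brain and -0.25 (-0.46 to -0.04) in the dura, where the thinned share of cells went the other way, from 13.6% to 19.8%. Lyve1+ macrophages had 28.3 to 41.2 CPM and Lyve1- macrophages 5.99 to 12.3 CPM. Infiltrating macrophage-like cells of brain D3 had 31.7 CPM, 2.04-fold (1.60 to 2.62) above the macrophages of brain S3. In the Ly6C hi monocyte-like cells 12 endothelial markers summed to 1.83 to 7.71 CPM. B precursor-like cells of dura S3 had 33.1 CPM (44 UMIs), and an unnamed cluster of proliferating cells with B precursor markers, found with 118 cells in dura S3, had 53.3 CPM with a UMI in 50.8% of cells.

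F3 and Serpinb2 were scarce. F3, the initiator that in tissue is mostly made by cells outside blood, had 566 UMIs over all kept cells of the 4 libraries. In brain S3, 47.5% of its 162 UMIs came from 10 fibroblast-like cells, fewer than the 20 cells required of a group elsewhere. The leading genes of this class held fibroblast markers such as Dcn and Col1a1. They also held Rgs5, Vtn, Tagln and Myl9, which are not on the fibroblast list, so the class may not be fibroblasts alone. Neutrophil-like cells had 7.08, 5.73, 22.2 and 6.10 CPM in brain S3, brain D3, dura S3 and dura D3, on 5 to 38 UMIs, and microglia-like cells 3.69 and 6.07 CPM with overlapping intervals. An unnamed cluster led by Siglecf, Cxcl3 and Tnf, with 138 cells in brain D3, had F3 at 33.9 CPM from 15 UMIs in 6.52% of its cells, and F10 at 160 CPM from 71 UMIs in 13.8% of its cells, which held a median of 3008 UMIs. Ly6C hi monocyte-like cells, which carried F10 and F5 but little F7, had 1 or 2 F3 UMIs per library. Serpinb2 was at 3.11 to 7.33 CPM in Ly6C hi monocyte-like cells (11 to 28 UMIs) and at 6.88 to 19.6 CPM in Ly6C low monocyte-like cells (4 to 11 UMIs), and it had 0 UMIs in T-like and B-like cells of all 4 libraries. Over the 65 groups the genes most like F3 were Gm20406 (r = 0.84), Hcar2 and Myl2, those most like Serpinb2 were Degs1 (r = 0.83), Ly6i and Nat8l, those most like Plau were Rgl3 (r = 0.85), Gdf15 and Rnf180, and those most like Thbd were Ywhag (r = 0.76), Trim25 and Mtpn. Those of F3 and Serpinb2 rest on few UMIs and are no finding.

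The members were set beside 43 other genes of the pathway, of which 9 were listed in no library, among them the fibrinogen chains Fga, Fgb and Fgg and plasminogen (Plg). Between the infiltrating macrophage-like cells of brain D3 and the macrophages of brain S3, 28.9% of all 12767 genes passed 2-fold, with a median log2 ratio of -0.25 over all genes and 0.16 over the 9 members. Of the 9 members F7, F10 and Thbd passed upward and F3, F5 and Plau downward, and of 23 other pathway genes tested 10 passed upward and 4 downward. With no filter on cells and after thinning F5 was higher instead of lower (log2 ratios of 1.71 and 0.11), and over the settings tried Thbd went down to 0.95 and F3 up to -0.07, both within 2-fold. Those with large folds and at least 100 UMIs included Procr, the receptor of protein C (9.89 against 1.71 CPM), the protease inhibitor Serpine2 (9.50 against 1.92 CPM), and the plasminogen-binding pair Anxa2 (468 against 133 CPM) and S100a10 (255 against 94.9 CPM). Pros1, which encodes the cofactor protein S, was the reverse at 8.45 against 39.4 CPM.

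Against the Ly6C hi monocyte-like cells of brain D3, where 25.2% of genes passed, F3, F7 and Plau were higher in the infiltrating macrophage-like cells and F5, F10, Plaur, Serpinb2 and Thbd lower, the F3 value resting on 1 UMI in the monocytes. Of 22 other pathway genes 9 were higher and 3 lower, and S100a10 was 255 against 926 CPM while Tfpi, the inhibitor of the tissue factor complex, was 10.1 against 1.98 CPM. Mcfd2, a carrier of factors V and VIII out of the endoplasmic reticulum, was 169 against 39.3 CPM. Against the macrophages of brain D3, where 22.9% passed, F5 (106 and 6 UMIs, and -0.36 on the log2 scale with doublets kept), F7 and F10 were higher and Plau lower, and of 23 other pathway genes 9 were higher and 3 lower, Lrp1, a receptor that clears protease and inhibitor complexes, at 380 against 145 CPM. In these 3 comparisons 6, 8 and 4 of the 9 members passed, and all 3 share the same infiltrating macrophage-like cells.

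The other pathway genes were also compared between D3 and S3 within classes. In microglia-like cells, where 13.8% of all genes passed, 5 of 23 other pathway genes passed upward and 3 downward, Anxa2 at 181 CPM in D3 and 35.5 CPM in S3, Anxa5 at 190 and 77.6 CPM and Procr at 9.33 and 3.88 CPM. In Ly6C hi monocyte-like cells 1 of 16 passed in the brain and none of 15 in the dura, against 11.7% and 7.48% of all genes. In neutrophil-like cells of the dura 7 of 12 passed upward and none downward, against 30.1% of all genes, with S100a10 at 471 CPM in D3 and 10.5 CPM in S3, in the class that in D3 held the cells low in S100a8 and S100a9. In cDC2-like cells of the brain, where 11.4% of all genes passed, F5, F10 and Thbd were past 2-fold upward and F3 and Plau downward among the 7 members tested, with F3 and F5 on 15 and 16 UMIs. Over the settings tried the log2 ratios of F5, F10 and Thbd there went down to 0.27, 0.10 and 0.45, all within 2-fold. In cDC2-like cells of the dura, where 7.66% passed, F10 and Thbd were past 2-fold downward among 5, with intervals that reached 0. A list of 12 hypoxia genes summed to 3130 CPM in infiltrating macrophage-like cells of brain D3 and to 502 and 653 CPM in the Lyve1- and Lyve1+ macrophages of brain S3, and to 997 and 1716 CPM in Ly6C hi monocyte-like cells of brain S3 and D3, with Adm or Egln3 at 0 in the S3 groups. Its part in the levels of F7 and F10 was not tested.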

How the data were processed

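CD45+ cells of mouse brain and dura mater were profiled with the 10x Chromium 3' assay, 1 library per condition. Per the submitters' processing notes the authors used Cell Ranger 3.1.0 (mm10) and Seurat 3.1.0. The deposited values are on a natural log scale, ln(1 + 10000 x UMIs / total) per cell, as the authors normalized them. Their inverse summed to 10000 in each cell and was a whole multiple of the cell's smallest value in 100% of entries (tolerance 1e-06), so UMI counts were recovered by taking each cell's smallest value as 1 UMI. The study's limits were applied to cells: over 1000 and under 6000 genes, and mitochondrial UMIs up to 7%. Scrublet's automatic threshold marked under 0.1% of cells, so the cells of highest score were removed at 0.8% per 1000 barcodes. Clustering used Seurat 5.3.0 (R 4.3.3) with 2500 variable genes less 21 genes of the pathway list, 30 components and resolution 0.6, and clusters were named by marker lists. Sums, exact intervals and thinning to 2000 UMIs used Python 3.11.15 with scipy 1.17.1 and were tested on simulated data. Groups under 20 cells were left out of levels and ratios, and a gene was tested between groups at 10 or more UMIs and called at 2-fold. A count of 0 was given a floor of 3 UMIs. Named were all 9 members, other pathway genes past 2-fold with at least 100 UMIs (at most 5 per direction) and the 3 genes most like each member. One gene that this rule names is not reported here. The members and lists were chosen with earlier results of these data known. Depth per library was 49003977 to 115154317 UMIs. 3' UMI levels were not compared between genes. The age printed is that of the series' design text.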

Additional observations from a re-analysis of the deposited data

How the results depend on the processing

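The 112 ratios of members were computed again under other settings, 1 of them chosen after seeing the data, which gave 1144 values. Of these, 956 stayed within the counting interval of the reported value, 177 left it, and 11 changed sign among ratios whose interval was off 0, 1 of them a bound. The cause was not tested where none is named. No paired analysis was possible because each condition has 1 library, so leaving out a replicate was also not possible.

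For F7 in infiltrating macrophage-like cells of brain D3 over the macrophages of brain S3, the lower bound of the log2 ratio was 5.97 with classes gated cell by cell, 6.34 with 2500 cells per library and 4.01 after thinning to 2000 UMIs, where fewer UMIs set a higher floor. The log2 ratio of F10 in the same comparison was 6.78 gated, 5.43 with no filter on cells, 6.49 thinned and 5.51 as a mean of single cells, and that of F13a1 -0.94 gated, -0.25 with no filter and -0.30 with doublets kept. In the brain, F10 in Ly6C hi monocyte-like cells was 0.89 gated, 1.01 at resolution 1.2, 0.98 with 2500 cells per library and 1.41 thinned, and in those of the dura 0.51 thinned. F7 in Ly6C hi monocyte-like cells of the dura went down to 0.27, and F10 in cDC2-like cells of the brain to 0.10. F5 in neutrophil-like cells of the brain was -1.75 gated and -1.67 thinned, and in those of the dura -0.63 at resolution 0.3, -0.71 with no filter and -0.90 without the cells low in S100a8 and S100a9. F13a1 in Lyve1+ macrophages of the dura was 0.37 at resolution 0.3, 0.46 with no filter and 0.35 with doublets kept, and in Lyve1- macrophages of the dura 1.26 gated.

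The direction changed for F13a1 in cDC2-like cells of the dura (0.22 gated, 0.24 with 2500 cells per library) and in brain Ly6C hi monocyte-like cells (0.061 at resolution 1.2), and for Plaur in Lyve1+ macrophages of the brain (1.29 with no filter). It changed for F5 in infiltrating macrophage-like cells over the macrophages of brain S3 (1.71 with no filter, 0.11 thinned) and over those of brain D3 (-0.36 with doublets kept). Thinning alone turned Thbd in Ly6C hi monocyte-like cells of the dura (0.35), and F5 (0.11) and F10 (-1.05) in immature neutrophil-like cells of the dura. For Serpinb2 in neutrophil-like cells of the dura, thinning left 0 UMIs in D3 and 4 in S3, and the value of 0.33 is an upper bound that fixes no direction.

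The share of all genes past 2-fold depended on the minimum of UMIs. It was 5.99% to 30.1% over the comparisons at 10 UMIs, 9.07% to 31.7% at 1 UMI and 1.02% to 23.2% at 50 UMIs. The count of members past 2-fold left 1.5 times its main value in 54 cases and stayed within it in 102.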
